A study of Homo sapiens with 6 samples.

Results

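The Ras-ERK pathway and its feedback genes were followed as a set of 48 genes chosen by name: the Ras GTPases, the factors that load or unload them, the RAF, MEK and ERK kinases, and the phosphatases, Sprouty and Spred inhibitors and transcription factors that ERK signalling is known to induce. All 48 were found among the 57819 genes of the deposited table, and all 48 passed the filter on low values. RNA came from IMR90 cells, human lung fibroblasts that carry ER:Ras. ER:Ras is a Ras protein fused to an estrogen receptor domain that 4-hydroxytamoxifen (4OHT) activates. Every library came from cells given 200 nM 4OHT for 3 days, so Ras was switched on in both groups and no library shows the pathway without it. The control group received the scrambled siRNA siSCR (3 libraries), and the knockdown group received siRNA against sin-lncRNA, a long noncoding RNA (3 libraries). The sample descriptions name this siRNA si1 and the table columns si1.3; columns were matched to samples by this stem and the replicate number, and the labels do not explain the suffix. The comparison asks which RNAs change when sin-lncRNA is depleted in these cells, which the series title calls senescent. The labels do not say whether replicates came from separate cultures, so p-values measure the spread between these libraries, which may be technical.

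Ras proteins are switches that are active when bound to GTP. Exchange factors such as SOS1 load GTP, and GTPase-activating proteins such as NF1 end the signal. Active Ras recruits RAF kinases, RAF phosphorylates MEK, MEK phosphorylates ERK, and ERK acts on kinases and transcription factors that induce early genes. Many of these early genes encode inhibitors of the same pathway, so that dual-specificity phosphatases (DUSP), Sprouty (SPRY) and Spred proteins form a negative feedback. In fibroblasts, sustained signalling from oncogenic Ras is a known trigger of senescence. RNA levels do not measure the phosphorylation of ERK, on which the output of the cascade depends.

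Reads in genes ranged from 30271192 to 50913672 in control libraries and from 22117324 to 27882280 in knockdown libraries, so every knockdown library was shallower. Members were covered by 18 reads (DUSP2 in 1 knockdown library) to 115828 reads (CCND1 in 1 control library) per library. The targeted lncRNA, listed under the clone name RP4-530I15.6, measured 3.70, 4.73 and 4.09 RPM (the reads-per-million scale, recovered reads over the effective library size) in controls and 0.493, 0.640 and 0.534 in knockdowns. All 10 fibroblast markers examined were detected in every library, at 93.8 RPM or more. Their levels were not stable between groups. All 10 passed the test threshold given below, 5 higher and 5 lower in knockdowns, where 41.0% of all genes tested did. Their log2 fold changes (knockdown minus control) ran from -0.88 to 0.76. The blood markers PTPRC, CD68, LYZ, CD3E and HBB did not exceed 0.214 RPM in any library. The epithelial markers KRT5 and CDH1 were at 0 RPM and at most 0.0448 RPM, and the summed epithelial list ran from 4.20 to 6.61 RPM in controls and from 2.02 to 2.74 in knockdowns, most of it KRT19. Of the endothelial markers, CDH5 and CLDN5 stayed at or below 0.119 RPM, and the list summed to 6.99 to 7.93 RPM in controls and 7.87 to 8.71 in knockdowns, most of it TEK and VWF. The part of the KRT19, TEK and VWF signal in the results was not tested. In bulk RNA, fewer cells of a kind and less RNA per cell cannot be told apart.

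Of the 48 genes, 32 changed after knockdown of sin-lncRNA, 10 upward and 22 downward (limma on log2 values, two-sided, Benjamini-Hochberg adjusted p under 0.05 over 19048 genes). The background is high in this comparison: 41.0% of all genes tested were called, 17.5% higher and 23.5% lower, against 66.7% of the Ras-ERK genes, 20.8% higher and 45.8% lower. The background was higher still for well-covered coding genes. Among protein-coding genes with a mean of at least 500 normalized reads, a level chosen after the values were seen, 55.9% were called (24.8% higher, 31.1% lower), and of the 43 Ras-ERK genes at that level 67.4% were called (18.6% higher, 48.8% lower). The median log2 fold change was -0.15 for the 48 genes and -0.04 for all genes tested, and the median absolute log2 fold change was 0.30 and 0.23. The median of the Ras-ERK genes depends on the processing: it was -0.04 for 47 genes with the trend in GC content and length removed (0.00 for all genes), -0.09 without knockdown replicate 1 and -0.10 with libraries thinned to the smallest. The libraries of the groups did not overlap for 38 of the 48 genes, where 51.1% of all genes tested had this property. Few changes were large. When a log2 fold change of 0.5 or more in either direction was also asked for, 9 genes remained: EGR2, DUSP4, SPRY1 and KSR1 above, and EGR3, SPRY2, DUSP2, MYC and MAPK3 below. Among all genes tested, 13.9% met this rule.

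**Figure D1:**
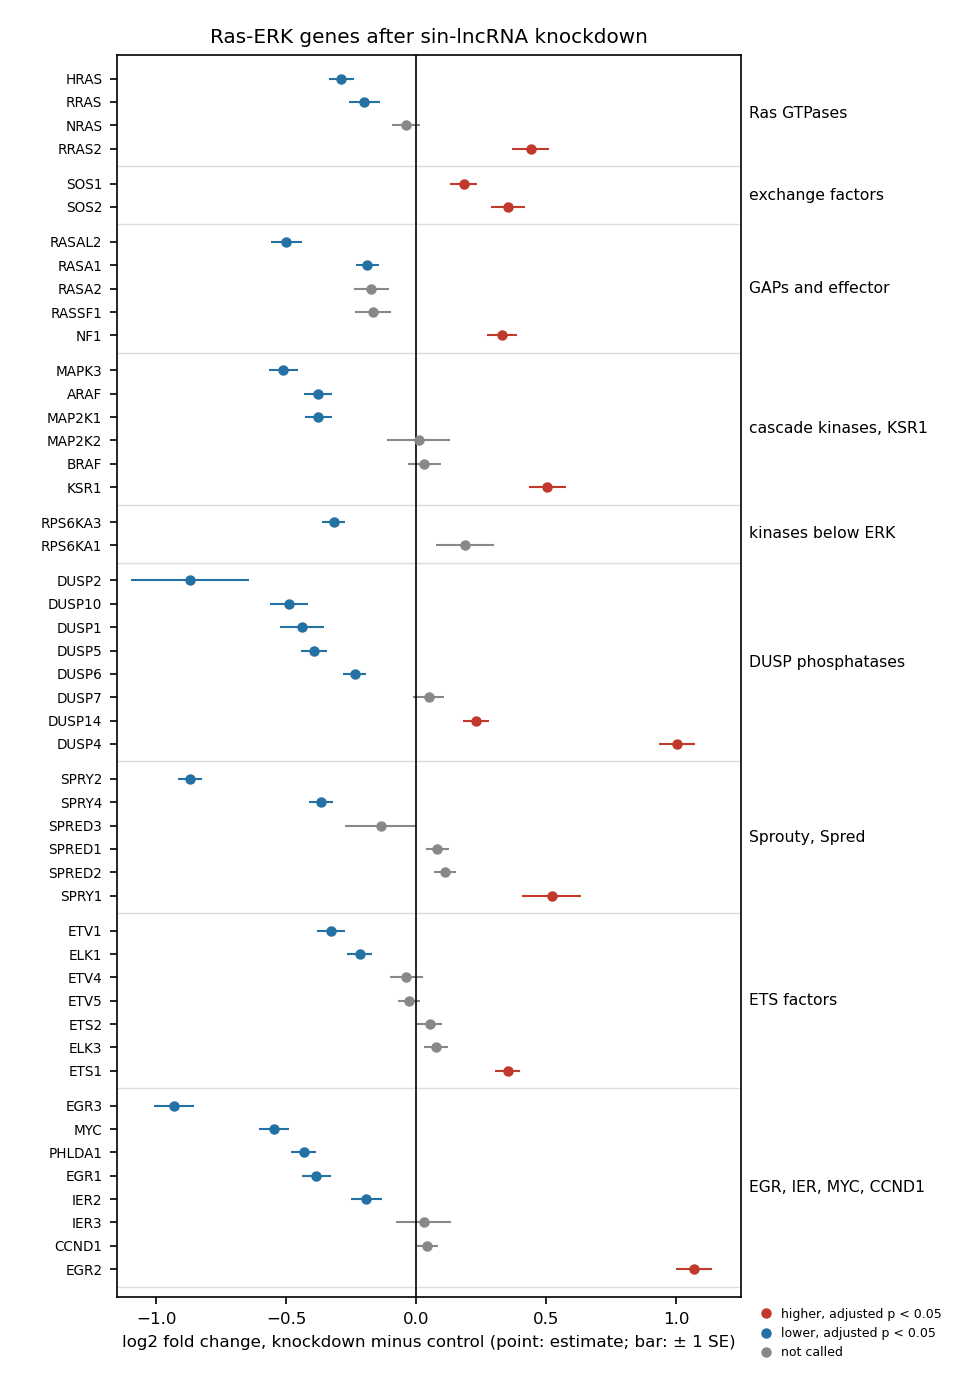
Log2 fold change of each Ras-ERK gene (knockdown minus control, n = 3 libraries each; points are limma estimates, bars are 1 SE), grouped by role and coloured by call. Most families hold called genes on both sides of 0; EGR2 (1.07) and DUSP4 (1.00) lie farthest to the right and EGR3 (-0.93), SPRY2 (-0.87) and DUSP2 (-0.87) farthest to the left.

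**Figure D2:**
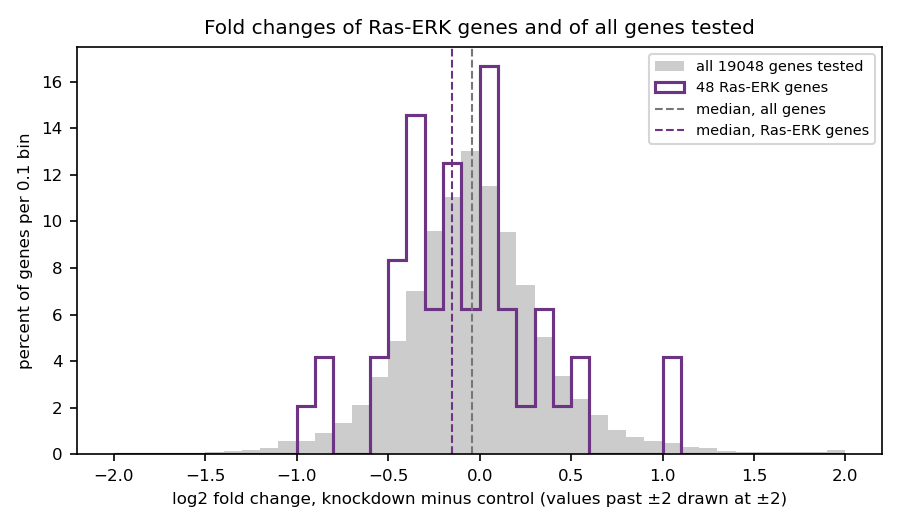
Percent of genes per 0.1 bin of log2 fold change for all 19048 genes tested (grey) and the 48 Ras-ERK genes (outline); dashed lines mark the medians, -0.04 and -0.15. The Ras-ERK genes lie within the range of the other genes, with their median to the left. After removal of the GC and length trend the medians were 0.00 and -0.04.

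The Ras GTPases moved in different directions: HRAS and RRAS fell, RRAS2 rose and NRAS was not called. HRAS (ENSG00000174775.12; chromosome 11, 532242 to 537287, minus strand, hg19) measured 2032, 2038 and 2035 RPM in controls and 1656, 1782 and 1573 in knockdowns. All knockdown libraries lay below all controls, and the controls lay much closer to each other than the knockdowns did (SD 2.72 and 105 RPM). The log2 fold change was -0.29 (SE 0.05; limma adjusted p = 0.00084), or 82.1% of control. It depends on the processing: once the trend of each library with GC content and length was removed, it was -0.02 (limma adjusted p = 0.85). Reads of the cell's own HRAS and of the Ras construct, which the labels do not describe further, were not told apart. Per kilobase of merged exon, HRAS had the highest level of the 47 genes with a length, at 1098 RPM per kilobase in controls and 901 in knockdowns. That was 31.7 times the level of NRAS in controls and 26.8 times in knockdowns. These levels and the GC and length correction used the annotated HRAS gene, which may not apply to reads of the construct.

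NRAS, the other classical Ras gene measured here, ranged from 145 to 160.3 RPM in controls and from 140.3 to 156 in knockdowns, and the groups overlapped. Its log2 fold change was -0.04 (SE 0.05; limma adjusted p = 0.60), and with the GC and length trend removed it was -0.13 (limma adjusted p = 0.016). RRAS2, a Ras-related GTPase that can also engage this pathway, measured 16.1, 17.0 and 18.1 RPM in controls and 22.6, 24.7 and 22.2 in knockdowns. Every knockdown library lay above every control (log2 fold change 0.44, SE 0.07; limma adjusted p = 0.00058). RRAS, linked to integrin-based adhesion, fell by 0.20 on the log2 scale (limma adjusted p = 0.022). That call was lost in 8 of 19 other fits, among them the fits without control replicate 1 or 3 or knockdown replicate 1 or 3 (limma adjusted p from 0.054 to 0.077).

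Both exchange factors rose. SOS2 measured 28.8, 32.0 and 32.3 RPM in controls and 42.1, 38.8 and 38.0 in knockdowns, with no overlap (log2 fold change 0.35, SE 0.06; limma adjusted p = 0.0013). SOS1 rose by 0.18 (SE 0.05; limma adjusted p = 0.016), and lost its call without control replicate 3 (limma adjusted p = 0.062) or knockdown replicate 1 (0.055) and with the GC and length trend removed (log2 fold change 0.04; limma adjusted p = 0.50). Of the genes that end the signal, NF1, which encodes neurofibromin, rose, whereas the Ras GTPase-activating protein genes RASAL2 and RASA1 fell. NF1 measured 171, 163 and 155 RPM in controls and 219.8, 191 and 203 in knockdowns (log2 fold change 0.33, SE 0.06; limma adjusted p = 0.00097). With the GC and length trend removed the log2 fold change of NF1 was 0.21 (limma adjusted p = 0.0017). The 7 NF1 pseudogenes in the table did not exceed 0.852 RPM, though reads shared with them are uncertain. RASAL2 fell from 38.3, 43.5 and 41.4 RPM to 29.3, 29.4 and 28.3 (log2 fold change -0.50, SE 0.06; limma adjusted p = 7.9e-05). It overlaps RP4-765C7.2 on the same strand. RASA1 fell by 0.19 on the log2 scale (limma adjusted p = 0.0054). RASA2, a further GTPase-activating protein gene (log2 fold change -0.17; limma adjusted p = 0.059), and RASSF1, a Ras effector with growth-restraining roles (-0.17; limma adjusted p = 0.084), were not called. RASA2 passed the threshold once control replicate 1 (limma adjusted p = 0.042) or knockdown replicate 1 (0.039) was left out, and with the GC and length trend removed (log2 fold change -0.30; limma adjusted p = 0.00053).

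Along the kinase cascade, at least 1 gene of each tier fell: ARAF among the RAF kinases, MAP2K1 (MEK1) among the MEK kinases, and MAPK3 (ERK1). MAPK3 (ENSG00000102882.7; chromosome 16, 30125426 to 30134827, minus strand, hg19) measured 97.9, 85.8 and 86.9 RPM in controls and 63.7, 61.5 and 64.5 in knockdowns. The groups were well apart, with 70.1% of the control level left (log2 fold change -0.51, SE 0.06; limma adjusted p = 5.0e-05). MAP2K1 fell from 53.7, 52.6 and 54.1 RPM to 39.1, 43.2 and 41.4 (log2 fold change -0.38, SE 0.05; limma adjusted p = 0.00024). A copy named MAP2K1P1 is listed at up to 13.0 RPM, so reads shared with it are uncertain. ARAF fell by 0.38 on the log2 scale (SE 0.05; limma adjusted p = 0.00025). The GC and length correction moved MAPK3 to -0.34 (limma adjusted p = 0.00031) and ARAF to -0.23 (limma adjusted p = 0.0044), and both stayed past the threshold.

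The second MEK gene and BRAF gave no call, with different precision. BRAF ranged from 35.3 to 38.7 RPM in controls and from 35.9 to 39.8 in knockdowns (log2 fold change 0.03, SE 0.06; limma adjusted p = 0.71). MAP2K2 (MEK2) measured 119, 86.2 and 108 RPM in controls and 88.4, 120.3 and 106 in knockdowns, and its SE of 0.12 exceeded that of every other cascade gene. Control replicate 2 and knockdown replicate 1 were the low libraries for MAP2K2. These libraries also lay together on the second principal component of all genes tested, at -18.4 and -19.9. Control replicate 1 and knockdown replicate 2, the highest libraries of their groups for MAP2K2, lay at 16.2 and 17.4. Control replicate 3 and knockdown replicate 3, the middle libraries for MAP2K2, lay at 1.67 and 2.97. The MAP2K2 values thus followed the same order in both groups. The part of this order in the SE and in the result was not tested. KSR1 (chromosome 17, 25783670 to 25953461, plus strand, hg19), a scaffold that holds RAF, MEK and ERK together, went the other way. It measured 20.2, 19.9 and 19.2 RPM in controls and 25.5, 29.5 and 29.4 in knockdowns, a rise in every library (log2 fold change 0.51, SE 0.07; limma adjusted p = 0.00022). Downstream of ERK, the kinase gene RPS6KA3 (RSK2) fell from 262, 254 and 254 RPM to 215, 207 and 197 (log2 fold change -0.32, SE 0.04; limma adjusted p = 0.00022). RPS6KA1 (RSK1) lay between 3.40 and 4.35 RPM, and was not called (log2 fold change 0.19, SE 0.11; limma adjusted p = 0.21), but passed the threshold with the GC and length trend removed (0.29; limma adjusted p = 0.047).

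**Figure D3:**
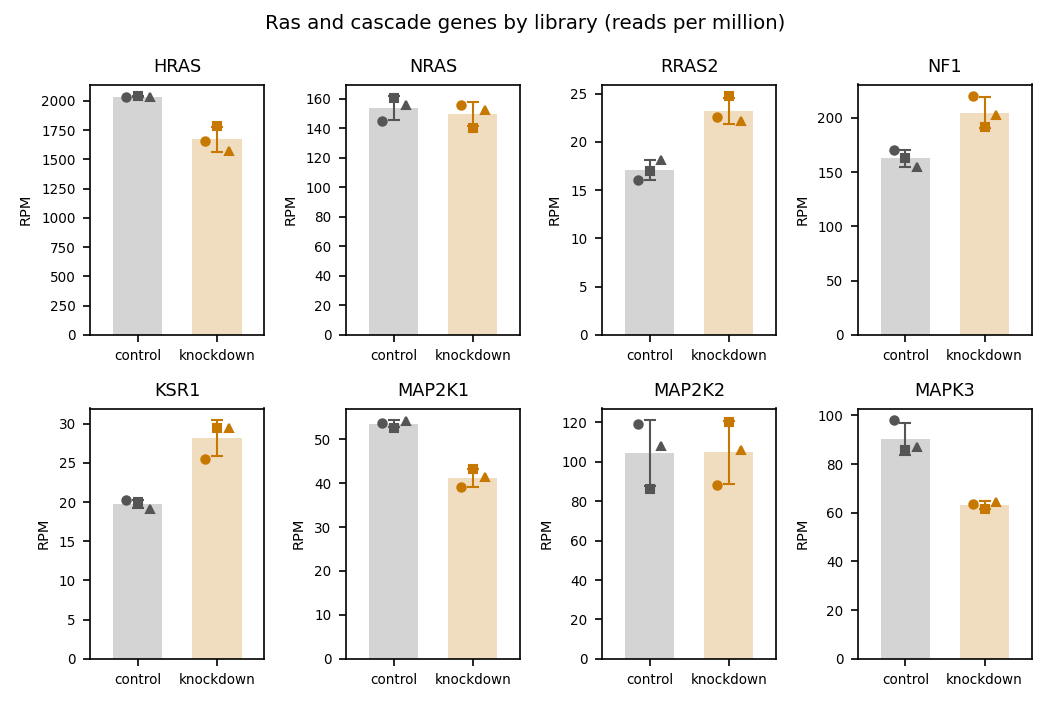
RPM (linear axes from 0) for 8 Ras and cascade genes in each library; bars are group means, error bars SD (n = 3), and circles, squares and triangles are replicates 1, 2 and 3. HRAS, MAP2K1 and MAPK3 are lower and RRAS2, NF1 and KSR1 higher in all knockdown libraries, and NRAS and MAP2K2 overlap.

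Of the 8 DUSP genes, which encode phosphatases that remove phosphates from ERK and related kinases, 5 fell and 2 rose. These are 62.5% lower and 25.0% higher, against 23.5% and 17.5% of all genes tested (31.1% and 24.8% of well-covered coding genes). DUSP4 (ENSG00000120875.4), a nuclear phosphatase induced by ERK, stood out as a rise. It measured 18.9, 18.1 and 19.6 RPM in controls and 36.8, 41.5 and 35.3 in knockdowns, 2.01 times the control mean (log2 fold change 1.00, SE 0.07; limma adjusted p = 1.9e-06). DUSP6 (chromosome 12, 89741009 to 89747048, minus strand, hg19), the cytoplasmic phosphatase specific for ERK and a common readout of its activity, moved the other way and by less. It measured 384, 360.2 and 378 RPM in controls and 309, 332 and 312 in knockdowns, with no overlap (log2 fold change -0.24, SE 0.04; limma adjusted p = 0.0016). DUSP5, a nuclear ERK phosphatase, fell from 103, 112 and 114 RPM to 83.7, 85.5 and 82.1 (log2 fold change -0.39, SE 0.05; limma adjusted p = 0.00012). Its copy DUSP5P1 is listed at up to 2.53 RPM.

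DUSP10, DUSP1 and DUSP2 fell as well. DUSP10, which acts mainly on p38 and JNK, went from 28.3, 29.5 and 25.9 RPM to 21.5, 19.9 and 18.4 (log2 fold change -0.49, SE 0.07; limma adjusted p = 0.00042). DUSP1, an immediate-early phosphatase, went from 38.5, 37.2 and 38.5 RPM to 25.0, 32.5 and 27.3 (log2 fold change -0.44, SE 0.08; limma adjusted p = 0.0019). DUSP2 (chromosome 2, 96808905 to 96811179, minus strand, hg19) had few reads, 18 to 96 per library, and measured 2.115, 1.299 and 1.907 RPM in controls and 1.12, 0.768 and 0.962 in knockdowns. Its fall of 0.87 on the log2 scale (SE 0.23; limma adjusted p = 0.011) lost its call without control replicate 3 (log2 fold change -0.80; limma adjusted p = 0.051). DUSP14 rose slightly, by 0.23 (SE 0.05; limma adjusted p = 0.0036). DUSP7 was not called (log2 fold change 0.05, SE 0.06; limma adjusted p = 0.55), but was called higher with the GC and length trend removed (0.17; limma adjusted p = 0.021).

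The Sprouty genes, whose products block Ras activation downstream of growth factor receptors, also moved in both directions. SPRY2 (ENSG00000136158.6; chromosome 13, 80910111 to 80915086, minus strand, hg19) measured 144, 153 and 154 RPM in controls and 82.8, 83.9 and 79.3 in knockdowns. Only 54.7% of its control level remained, and the gap between the groups was many times their SD of 5.59 and 2.38 RPM (log2 fold change -0.87, SE 0.05; limma adjusted p = 3.5e-07). SPRY4 (chromosome 5, 141689992 to 141706020, minus strand, hg19) fell from 329.6, 317 and 309 RPM to 249, 258 and 236 (log2 fold change -0.36, SE 0.05; limma adjusted p = 0.00012). SPRY1 (chromosome 4, 124317950 to 124324910, plus strand, hg19) rose, from 9.16, 7.06 and 6.74 RPM to 11.1, 11.1 and 10.4 (log2 fold change 0.52, SE 0.11; limma adjusted p = 0.0037). The rise of SPRY1 rests on 212 to 339 reads per library.

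None of the 3 Spred genes, whose products recruit neurofibromin to Ras, was called. SPRED2 came nearest, with 140.4, 139.7 and 143 RPM in controls and 158, 148 and 151 in knockdowns (log2 fold change 0.11, SE 0.04; limma adjusted p = 0.056). Its call turned on the processing, since 5 of the 19 other fits put it past the threshold, including scaling by library totals (limma adjusted p = 0.029) and by the median of ratios (0.027). SPRED1 (log2 fold change 0.08, SE 0.05) and SPRED3 (-0.14, SE 0.14) had limma adjusted p-values of 0.18 and 0.46.

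**Figure D4:**
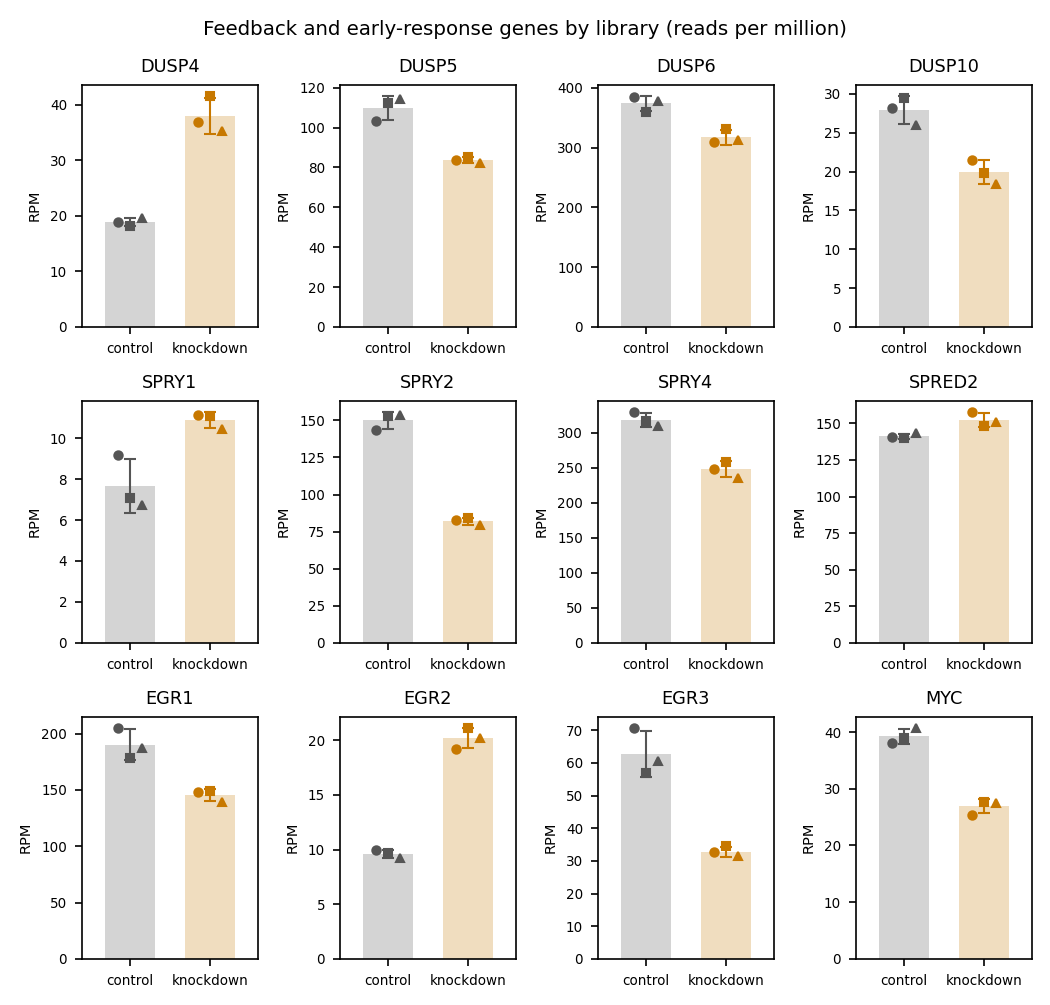
RPM (linear axes from 0) for 12 feedback and early-response genes in each library; bars are group means, error bars SD (n = 3), and circles, squares and triangles are replicates 1, 2 and 3. DUSP4, SPRY1 and EGR2 are higher in all knockdown libraries than in all controls, while DUSP5, DUSP6, DUSP10, SPRY2, SPRY4, EGR1, EGR3 and MYC are lower in all of them.

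The 3 EGR genes, immediate-early zinc finger factors induced through ERK and the serum response factor, split as well. EGR2 (ENSG00000122877.9; chromosome 10, 64571756 to 64679660, minus strand, hg19) measured 9.93, 9.72 and 9.18 RPM in controls and 19.2, 21.1 and 20.2 in knockdowns, 2.10 times the control mean. EGR3 (ENSG00000179388.8) measured 70.7, 57.0 and 60.6 RPM in controls and 32.7, 34.4 and 31.3 in knockdowns, or 52.3% of control. EGR1 (ENSG00000120738.7; chromosome 5, 137801179 to 137805004, plus strand, hg19) measured 205, 179 and 187 RPM in controls and 148, 149 and 139.5 in knockdowns, or 76.6% of control. The groups were apart for all 3 genes, with log2 fold changes of 1.07 (SE 0.07) for EGR2, -0.93 (SE 0.08) for EGR3 and -0.38 (SE 0.06) for EGR1. The limma adjusted p-values were 1.4e-06, 5.6e-06 and 0.00028.

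EGR1 and EGR2 are shown with the bases upstream of a start site because they moved in opposite directions although both windows hold CArG boxes, the binding element of the serum response factor. The sequences are from RefSeq (GRCh38.p14), 250 bases up to the start, 5′ to 3′ on the gene's strand, with CArG boxes in capitals. EGR1 lies at chr5:138465229-138465478 on the plus strand, and the EGR2 window, 1 of 3 listed for that gene, at chr10:62816367-62816616 on the minus strand.
EGR1: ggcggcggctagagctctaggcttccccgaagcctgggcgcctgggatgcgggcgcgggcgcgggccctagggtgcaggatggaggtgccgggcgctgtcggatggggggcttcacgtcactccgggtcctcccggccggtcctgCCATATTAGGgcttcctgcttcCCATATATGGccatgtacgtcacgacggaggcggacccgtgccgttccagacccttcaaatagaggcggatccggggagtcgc
EGR2: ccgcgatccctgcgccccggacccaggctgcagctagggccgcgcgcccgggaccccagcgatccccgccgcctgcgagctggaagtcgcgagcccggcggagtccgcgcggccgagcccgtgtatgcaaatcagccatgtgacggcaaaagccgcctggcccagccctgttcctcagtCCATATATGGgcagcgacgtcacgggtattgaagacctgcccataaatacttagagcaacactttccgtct

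The box CCATATATGG occurs in both, beginning 83 bases before the start in EGR1 and 71 bases before it in EGR2, and EGR1 holds a further box, CCATATTAGG, beginning at 105 bases. Of the 48 genes, 37 were matched to 63 windows of 300 bases (250 before and 50 after a start). CArG boxes were found in 2 of the 63 windows (3.17%), those of EGR1 and EGR2, and in 1.29% of all 35116 windows. The ETS word CCGGAAG, on either strand, was in 5 windows (7.94%, against 10.3% of all windows): those of HRAS, NRAS, NF1, SPRY1 and IER2. The AP-1 word TGACTCA was in 4.76% of the members' windows and 4.95% of all, and the EGR word GTGGGCG in 6.35% and 9.52%. These matches describe letters in these windows and were not tested.

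Among the other early genes, MYC and PHLDA1 fell, and CCND1 was not called. MYC, the transcription factor that drives growth, measured 38.1, 38.9 and 40.7 RPM in controls and 25.5, 27.7 and 27.5 in knockdowns (log2 fold change -0.55, SE 0.06; limma adjusted p = 3.3e-05). PHLDA1, an early gene used as a marker of ERK output, fell from 915, 828 and 893 RPM to 679.7, 643 and 629.6 (log2 fold change -0.43, SE 0.05; limma adjusted p = 5.3e-05). CCND1, which encodes cyclin D1 and is a classical target of the pathway, had the second highest level per kilobase after HRAS. It measured 2301, 2227 and 2301 RPM in controls and 2332, 2403 and 2306 in knockdowns (log2 fold change 0.04, SE 0.04; limma adjusted p = 0.42), and with quantile normalization it passed the threshold (0.11; limma adjusted p = 0.037). IER3 ranged from 160.0 to 201 RPM in controls and from 160.4 to 215 in knockdowns and was not called (log2 fold change 0.03, SE 0.11; limma adjusted p = 0.85), but was called higher with the GC and length trend removed (0.22; limma adjusted p = 0.021). Its lowest libraries were control replicate 2 and knockdown replicate 1, as for MAP2K2. IER2 fell by 0.19 on the log2 scale (limma adjusted p = 0.027), a call lost in 8 of 19 other fits, among them those without control replicate 1 or 3 or knockdown replicate 1 or 3 (limma adjusted p from 0.073 to 0.098).

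The ETS factors, which include direct ERK substrates and ERK-induced genes, changed least as a family, with a median absolute log2 fold change of 0.08 over 7 genes. ETS1, a founding member of the family, rose from 89.6, 99.8 and 95.9 RPM to 122, 119 and 122 (log2 fold change 0.35, SE 0.05; limma adjusted p = 0.00022). ETV1 fell from 126, 130.2 and 124 RPM to 109, 94.6 and 99.9 (log2 fold change -0.33, SE 0.06; limma adjusted p = 0.00078). ELK1, an ERK substrate that works with the serum response factor, fell by 0.22 on the log2 scale (limma adjusted p = 0.0043), and by 0.09 once the GC and length trend was removed (limma adjusted p = 0.068). ETV4 and ETV5, PEA3-type factors induced by ERK, were not called, with log2 fold changes of -0.04 (SE 0.06) and -0.03 (SE 0.04) and limma adjusted p-values of 0.67 and 0.62. ETS2 and ELK3 were not called either (log2 fold changes 0.05 and 0.08; limma adjusted p = 0.42 and 0.21).

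A list of 10 transcripts used elsewhere as a readout of ERK output (8 of them members) also split: 4 fell, 3 rose and 3 were not called. Of the 10, 40.0% were lower and 30.0% higher, against 23.5% and 17.5% of all genes tested. Among well-covered coding genes these shares were 31.1% and 24.8%. SPRY2, PHLDA1, SPRY4 and DUSP6 fell, CCND1, ETV4 and ETV5 were not called, and DUSP4 and the ephrin receptor genes EPHA2 and EPHA4 rose. EPHA4 rose from 81.6, 91.1 and 85.9 RPM to 118, 113 and 119 (log2 fold change 0.44, SE 0.05; limma adjusted p = 6.0e-05). EPHA2 rose from 103, 94.0 and 97.6 RPM to 110, 132 and 126 (log2 fold change 0.31, SE 0.07; limma adjusted p = 0.0032). The median log2 fold change of the 10 was -0.03, against -0.04 for all genes tested.

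Of 67 further genes of the pathway, 61 were tested and 34 changed, 14 upward and 20 downward (22.95% and 32.8% of those tested, against 17.5% and 23.5% of all genes). Their median log2 fold change was 0.05. RASGRP3, a Ras exchange factor that responds to diacylglycerol, had the highest log2 fold change of this list. It measured 2.97, 3.90 and 4.17 RPM in controls and 13.9, 16.1 and 15.2 in knockdowns (log2 fold change 2.04, SE 0.13; limma adjusted p = 8.7e-07). DUSP8, a phosphatase of JNK and p38, measured 2.47, 1.66 and 2.09 RPM in controls and 3.94, 5.21 and 3.92 in knockdowns (log2 fold change 1.07, SE 0.17; limma adjusted p = 0.00056). The groups did not overlap for either gene, which had 101 to 427 reads (RASGRP3) and 50 to 122 reads (DUSP8) per library. No gene of the list fell by 1 or more on the log2 scale.

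**Figure D5:**
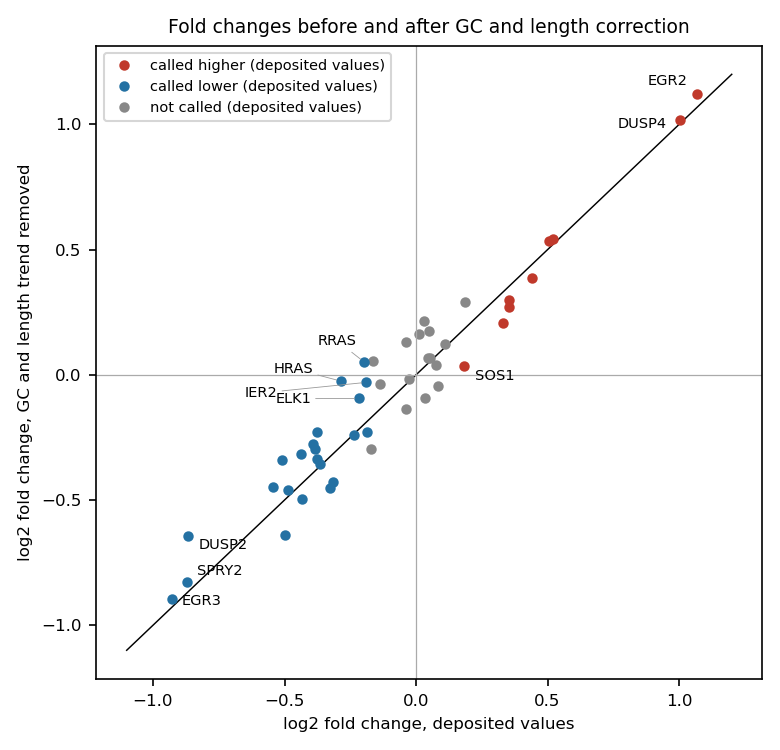
Log2 fold change of 47 Ras-ERK genes from the deposited values (x axis) and after the trend of each library with GC content and length was removed (y axis); the diagonal marks equal values. EGR2, DUSP4, EGR3 and SPRY2 stay near it, whereas HRAS, RRAS, IER2, ELK1 and SOS1 move toward 0 or past it and lose their call. NRAS, RASA2, DUSP7, IER3, RPS6KA1 and SPRED2 gain one.

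Calls of 26 of the 32 changed genes held in each of the 19 other fits that included the gene; DUSP14, with no length, was in 18. The 6 that did not were HRAS, RRAS, SOS1, ELK1, IER2 and DUSP2. The 3 libraries against 3 allow an exact permutation p no lower than 0.1, so single genes rest on the spread shared across genes in limma. Because the strand setting is not given in the sources used here, values of the 17 members that overlap another gene with reads are uncertain. Among them are CCND1 (opposite ORAOV1), ETV4 (opposite DHX8), BRAF (opposite NDUFB2), RASA1 (opposite CCNH) and MAP2K1 (opposite SNAPC5). RASAL2 is also among the 17, with RP4-765C7.2 on its own strand.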

How the data were processed

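PolyA RNA of 6 libraries was read as single 50 bp reads, per the labels' protocols. The submitters' processing notes name Bowtie2, featureCounts and hg19; versions, annotation, strand setting and normalization tool are not given in the sources used here. The authors deposited log2 values per gene and library. Undoing a 0.5-read offset and an effective size per library gave whole reads for 100% of values (within 0.001), so the deposited values are log2 CPM; effective sizes were 0.989 to 1.009 times the read totals. A count of 0 allows up to 3 reads, 0.0596 to 0.134 RPM, for counting error only.

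The deposited log2 values were fitted with limma 3.58.1 (R 4.3.3): lmFit, eBayes with an intensity trend, group as the sole term, two-sided, for the 19048 genes with a mean of at least 10 normalized reads, with Benjamini-Hochberg adjustment over all of them and a threshold of 0.05. Fold changes understate those of genes with few reads. On simulated counts of 19048 genes, the fit recovered 86% of genes shifted by 1 on the log2 scale and 55% of those shifted by 0.5. Of its calls, 2.08% were false. The simulation shifted few genes, used a fixed dispersion of 0.005 and held no GC or length trend, whereas 41.0% of genes were called here. Its rates therefore do not measure recovery or false calls in these data. Lengths, GC content and merged exons came from GENCODE 29 by gene ID (97.4% of genes tested; DUSP14 had none). Alternatives were 19 other fits and 2 stricter thresholds.

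Members and lists were chosen with earlier results of these data known. The naming rule gave every library's value for members called with a log2 fold change of 0.5 or more in either direction and no overlap, and for HRAS, DUSP6, SPRY4 and EGR1; values of other members were added for depth. From the further pathway genes, those called with a change of 1 or more on the log2 scale were named. Protein sequences were not used here.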

Additional observations from a re-analysis of the deposited data

How the results depend on the processing

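The number of Ras-ERK genes called ran from 28 to 33 in the 19 other fits (9 to 12 higher, 19 to 22 lower), and was lowest without control replicate 3. A required log2 change of 0.5 or more, either way, left 9 (4 higher, 5 lower) and, over all genes tested, 2643 (1185 higher, 1458 lower). An adjusted p under 0.01 left 5195 of the 7805 genes called in the whole table, 2955 of them lower. These drops follow from the stricter thresholds.

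Same-numbered libraries did not deviate alike from their groups, with correlations of -0.15, -0.18 and 0.07. Some libraries of unlike number lay close on the second principal component. Control replicate 1 and knockdown replicate 2 lay at 16.2 and 17.4, and control replicate 2 and knockdown replicate 1 at -18.4 and -19.9. Control replicate 3 and knockdown replicate 3 lay at 1.67 and 2.97. A fit with libraries paired in this order was not run. With a block by equal replicate number, 30 Ras-ERK genes and 6454 of all genes were called, and RRAS and IER2 lost their calls (limma adjusted p = 0.059 and 0.078).

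RRAS was the sole called member to change sign, to 0.052 with the GC and length trend removed. Uncalled members that changed sign in that fit were BRAF (-0.093), ETV4 (0.13), RASSF1 (0.056) and SPRED1 (-0.044), and with quantile normalization ETV4 (0.0082) and ETV5 (0.0058). With a library left out, BRAF ran from -0.016 to 0.076, ETV4 from -0.091 to 0.015, IER3 from -0.074 to 0.14, MAP2K2 from -0.12 to 0.13 and NRAS from -0.081 to 0.0065. The causes were not tested. Depth limits DUSP2, with 18 reads in knockdown replicate 2.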
